A study of Rattus norvegicus with 18 samples.

Results

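The 9 genes described here are the sensors and messengers of innate inflammation in the rat retina: the receptors Tlr2, Tlr4 and Cd14, the adaptor Myd88, the cytokines Il1b, Il18, Tnf and Il6, and the enzyme gene Ptgs2. They were chosen by name, as 9 of the 14506 genes that have a probe set with a single gene symbol, and each had 1 such probe set. Their log2 intensities were read on 18 Affymetrix arrays (rat Gene 1.0 ST), with 6 groups of 3, from young adult albino Sprague Dawley rats (P80 to P120). All animals had been kept under cyclic light of 5 lux and fed a vegetable matrix. Control animals had nothing else, the saffron group ate 1 mg/kg/day of saffron over 3 weeks, and the PBM (photobiomodulation) group was held under red light for 3 min a day on 5 days. The LD (light damage) group was exposed to bright white light for 24 h, and in SafLD and PBMLD the same exposure followed saffron or PBM. The sample descriptions give the light as 1000 lux, while the source names of the LD samples give 100 lux and those of SafLD and PBMLD 1000 lux. Each array is taken as the retina of 1 animal, since the study took 1 eye from each, but the labels do not say which animal an array belongs to, nor its sex.

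Toll-like receptors recognise microbial products and molecules released by injured cells, and CD14 is a co-receptor that hands ligands to TLR4 and TLR2. MyD88 is the adaptor through which most Toll-like receptors and the receptors of the interleukin-1 family signal to NF-kB, and NF-kB in turn drives the genes for interleukin-1 beta, interleukin-6, tumor necrosis factor and cyclooxygenase-2 (Ptgs2). In the retina these genes are known from microglia, invading macrophages and Müller cells, and they are studied in photoreceptor degeneration. A whole retina holds all of these cells, so that in these arrays more cells of a type and more RNA per cell cannot be told apart.

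Promoters are shown for 3 genes that rose over the light-exposed groups together: Myd88, by a rule on the light comparison, and Tnf and Il6, which were chosen after their values were seen. Each window holds 250 bases before and 50 after the RefSeq start of the gene in the GRCr8 build, 5′ to 3′ on the strand of the gene. Capitals mark the matches to 6 motifs that were searched on both strands.
Myd88 (chr8:127956181-127956480, minus strand): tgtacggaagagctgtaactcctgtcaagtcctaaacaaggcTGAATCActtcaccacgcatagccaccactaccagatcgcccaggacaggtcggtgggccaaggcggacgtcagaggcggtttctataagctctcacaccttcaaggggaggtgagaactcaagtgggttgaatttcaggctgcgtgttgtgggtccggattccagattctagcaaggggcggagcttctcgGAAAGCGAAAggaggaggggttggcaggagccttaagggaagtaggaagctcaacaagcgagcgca
Tnf (chr20:3626435-3626734, plus strand): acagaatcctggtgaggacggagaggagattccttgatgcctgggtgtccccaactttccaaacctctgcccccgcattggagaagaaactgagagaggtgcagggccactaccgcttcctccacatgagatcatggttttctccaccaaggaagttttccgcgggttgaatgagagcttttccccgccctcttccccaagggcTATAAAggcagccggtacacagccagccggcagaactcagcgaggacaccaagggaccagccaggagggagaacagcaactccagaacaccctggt
Il6 (chr4:5894526-5894825, minus strand): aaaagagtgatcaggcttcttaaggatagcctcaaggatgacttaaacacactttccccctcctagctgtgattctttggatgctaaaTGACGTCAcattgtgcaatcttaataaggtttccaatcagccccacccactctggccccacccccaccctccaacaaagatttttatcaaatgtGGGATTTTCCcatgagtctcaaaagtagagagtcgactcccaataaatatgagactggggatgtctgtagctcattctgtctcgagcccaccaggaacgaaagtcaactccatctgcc
The capitals in Myd88 are an AP-1 motif (TGANTCA), 208 to 202 bases before the start, and an interferon-response core (GAAA, 2 bases of any kind, then GAAA), 16 to 7 bases before it. In Tnf they are a TATA box (TATAAA), 46 to 41 bases before the start. In Il6 they are a cyclic AMP response element (TGACGTCA), 162 to 155 bases before the start, and an NF-kB consensus, 68 to 59 bases before it. Of the 33469 rat promoters of this length, 7.33% hold the AP-1 motif, 3.92% the interferon-response core, 14.2% the TATA box, 1.83% the cyclic AMP response element and 7.51% the NF-kB consensus. The C/EBP motif (TTGCGCAA), held by 0.17%, was in none of the 9 windows. Of the other members, Tlr2 held 3 NF-kB matches, of which a pair overlapped, Il1b held a TATA box and Il18 an AP-1 motif, while the windows of Tlr4, Cd14 and Ptgs2 held none of the 6. A match describes the letters only.

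Most of the members were dim. The mean log2 level over the 18 arrays ran from 3.51 for Il6, at the 15.4th percentile of all probe sets, to 7.05 for Myd88, at the 61.1st. The 59 probe sets of olfactory receptors, genes not known for a function in the retina, had a median of 3.13 and a 95th percentile of 4.94. The means of Il6, Tlr2, Il18 and Il1b were below that percentile, so that part of their signal cannot be told from background. Beyond this yardstick, levels of different members are not compared, since each probe set has its own probes.

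Light was followed by higher Myd88, Tnf and Ptgs2. A limma model was fitted to all 18 arrays, and a gene is called regulated here when it changed more than 2-fold with a p below 0.05 after adjustment over all probe sets, as in the criterion of the study with the adjustment added. In LD against control 1 of the 9 members was regulated, Myd88, and it was higher, where 0.466% of all 29214 probe sets were regulated upwards. With no limit on the fold, 3 members rose (Myd88, Tnf and Ptgs2), beside 0.839% of all probe sets. In 6 members every LD array was above every control array, which held for 7.54% of all probe sets. The median difference over the 9 members was 0.82 on the log2 scale, and that over all probe sets -0.02.

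**Figure D1:**
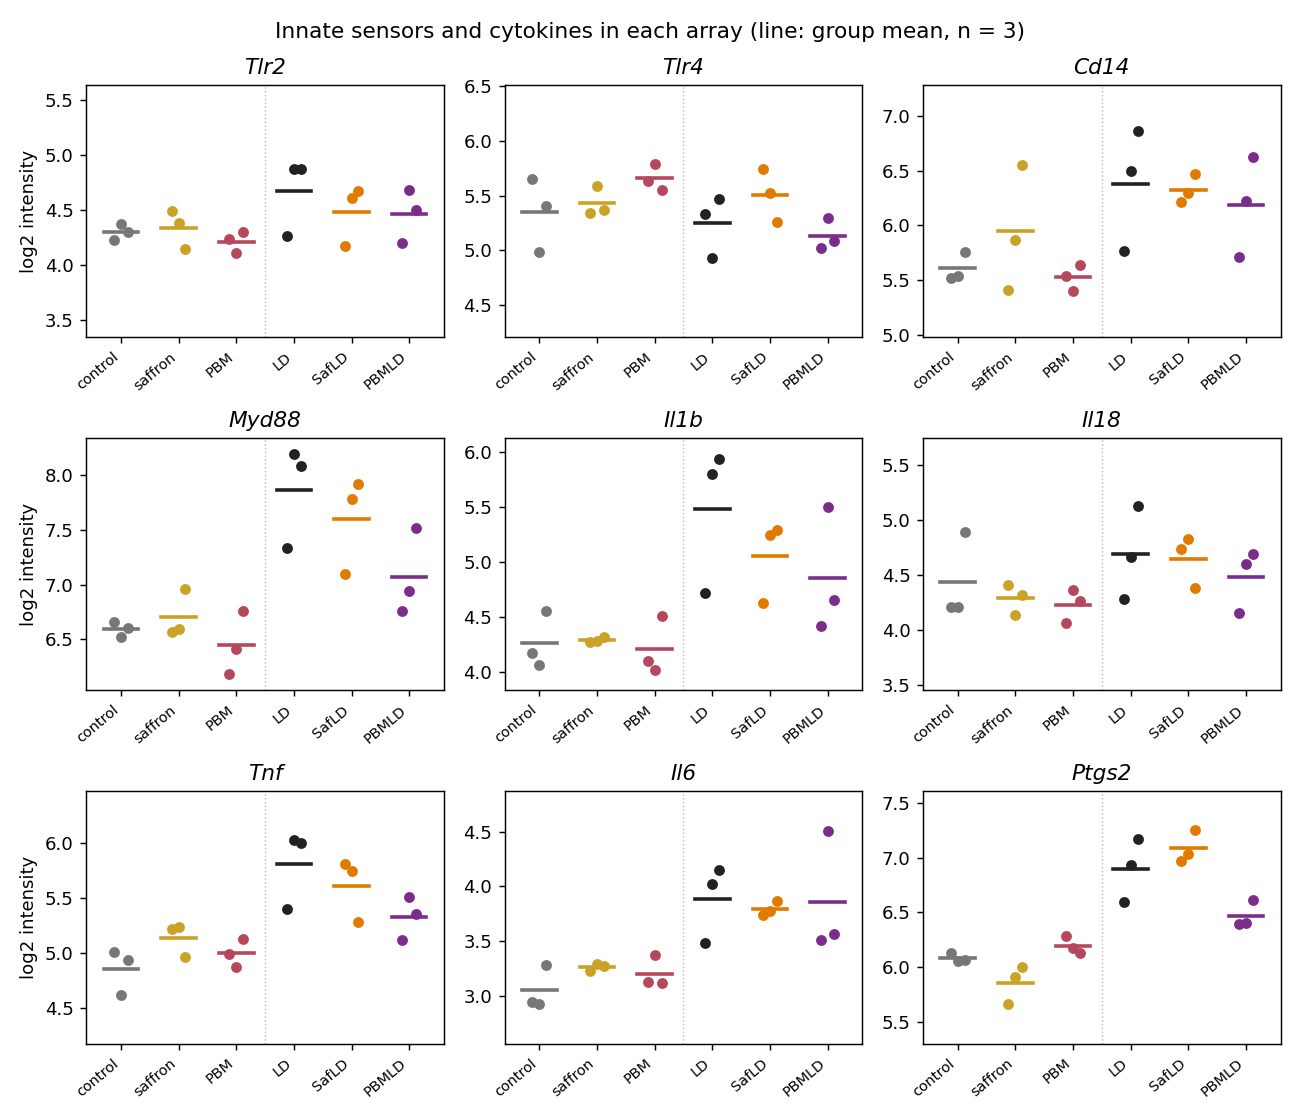
Log2 intensity (vertical axis, an equal span of 2.3 units in each panel) of the 9 genes in each of the 18 arrays, by group (horizontal axis), with 3 points per group and a line at the group mean. In Il6 and Ptgs2 all 9 points to the right of the dotted line (light-exposed) are above all 9 to its left; Tlr4 shows no such step.

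Among the sensors, Tlr2, the receptor for bacterial lipoproteins, read 4.27, 4.88 and 4.88 in the LD arrays and 4.23, 4.37 and 4.30 in the controls. LD array 1 lay within the control range and the other LD arrays above it, and the difference of 0.38 ± 0.18 (SE, n = 3 against 3) did not pass the test (limma adjusted p = 0.517). Tlr4, the receptor for lipopolysaccharide, differed by -0.10 ± 0.18 (adjusted p = 0.930). Cd14 read 5.77, 6.50 and 6.86 in LD against 5.52, 5.54 and 5.76 in control. These groups did not overlap, but LD array 1 was nearly at the highest control, and the difference of 0.77 ± 0.28 did not pass (adjusted p = 0.298).

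Myd88 read 7.33, 8.19 and 8.08 in LD and 6.66, 6.53 and 6.60 in control. The groups were far apart, with LD array 1 the lowest of its group. The difference was 1.27 ± 0.25, or 2.42-fold (adjusted p = 0.0150). The call was kept only without LD array 1 (1.54, adjusted p = 0.00216): without any other single array of the 2 groups the adjusted p was 0.0580 to 0.102, and with the 2 groups fitted alone it was 0.0509.

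Tnf, the gene of tumor necrosis factor, read 5.40, 6.03 and 6.002 in LD and 5.01, 4.62 and 4.93 in control. The groups did not overlap, and Tnf rose by 0.96 ± 0.18, or 1.94-fold (adjusted p = 0.0124). The p stayed below 0.05 in 3 of 6 fits that left out 1 array and reached 0.0916 without LD array 3; it was 0.0870 without control array 2 and 0.0723 without LD array 2. Il1b, whose product is the main secreted ligand of the interleukin-1 receptor, read 4.72, 5.80 and 5.94 in LD and 4.18, 4.06 and 4.55 in control. Here too LD array 1 was the lowest of its group, and the difference of 1.22 ± 0.30, or 2.34-fold, missed the threshold (adjusted p = 0.0623); without LD array 1 it was 1.61 (adjusted p = 0.00329).

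Il6 read 3.49, 4.02 and 4.15 in LD and 2.95, 2.93 and 3.29 in control, a difference of 0.83 ± 0.22 (adjusted p = 0.0844). Without LD array 1 it was 1.03 (adjusted p = 0.0225). Il18, a cytokine that caspase-1 activates, differed by 0.26 ± 0.22 (adjusted p = 0.795), and its groups overlapped. Ptgs2, the inducible enzyme of prostaglandin synthesis, read 6.60, 6.93 and 7.17 in LD and 6.13, 6.06 and 6.06 in control. Every LD array was above every control. Ptgs2 rose by 0.82 ± 0.14, or 1.76-fold (adjusted p = 0.00574), and passed in all 6 fits with 1 array left out (adjusted p 0.000928 to 0.0429).

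After saffron, the same exposure was followed by higher Ptgs2, Myd88 and Tnf. In SafLD against control 2 members were regulated, both upwards (0.548% of all probe sets were), 3 rose with no limit on the fold (1.45%), and in 6 members the groups did not overlap (13.9%). Ptgs2 read 6.97, 7.03 and 7.25 in SafLD, 1.00 ± 0.14 or 2.001-fold above control (adjusted p = 6.05e-04). Myd88 read 7.10, 7.78 and 7.92, 1.00 ± 0.25 or 2.005-fold above control (adjusted p = 0.0402). Both folds were just over the limit of 2, and after median centring they were under it (0.97 on the log2 scale for each), with adjusted p-values still below 0.05. Tnf read 5.81, 5.75 and 5.28, 0.76 ± 0.18 above control (adjusted p = 0.0346). With 1 array left out Ptgs2 kept its p (adjusted p at most 0.00738) but was more than 2-fold in 3 of 6 fits. Myd88 passed only without SafLD array 1 (1.25, adjusted p = 0.0148) and reached 0.186 without SafLD array 3, and Tnf passed only without SafLD array 3 (0.93, adjusted p = 0.0280) and otherwise had an adjusted p of 0.0652 to 0.131.

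The other cytokines and Cd14 did not pass in SafLD, although 3 of them were clear of the controls. Il6 read 3.74, 3.77 and 3.87, above all 3 controls, with a difference of 0.74 ± 0.22 (adjusted p = 0.0774). Il1b read 4.63, 5.24 and 5.30, with a difference of 0.79 ± 0.30 (adjusted p = 0.178). Cd14 read 6.22, 6.29 and 6.47, with a difference of 0.72 ± 0.28 (adjusted p = 0.190). For these 3 genes, as for Myd88, Tnf and Ptgs2, the lowest SafLD array was above the highest control.

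After PBM, no member passed the test in the light. In PBMLD against control 0 members were regulated (0.157% of all probe sets were regulated upwards) and 0 rose with no limit on the fold (0.325%). In 4 members the groups did not overlap (9.07%). Myd88 read 6.76, 6.94 and 7.51 in PBMLD, above all controls but below 2 of the 3 LD arrays, and differed from control by 0.48 ± 0.25 (adjusted p = 0.464). Ptgs2 read 6.40, 6.40 and 6.61, with a difference of 0.39 ± 0.14 (adjusted p = 0.269), and Tnf read 5.12, 5.51 and 5.35, with a difference of 0.47 ± 0.18 (adjusted p = 0.307).

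PBMLD array 2 carried part of the Il6 and Il1b differences from control, which without it were 0.49 and 0.27. Il6 read 3.51, 4.51 and 3.57, so that PBMLD array 2 had the highest Il6 of all 18 arrays. Every PBMLD array was above every control in Il6, and the difference was 0.81 ± 0.22 (adjusted p = 0.104). Il1b read 4.41, 5.50 and 4.66, a difference of 0.59 ± 0.30 (adjusted p = 0.449), and overlapped the controls. Cd14 read 5.71, 6.22 and 6.62, a difference of 0.58 ± 0.28 (adjusted p = 0.427).

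**Figure D2:**
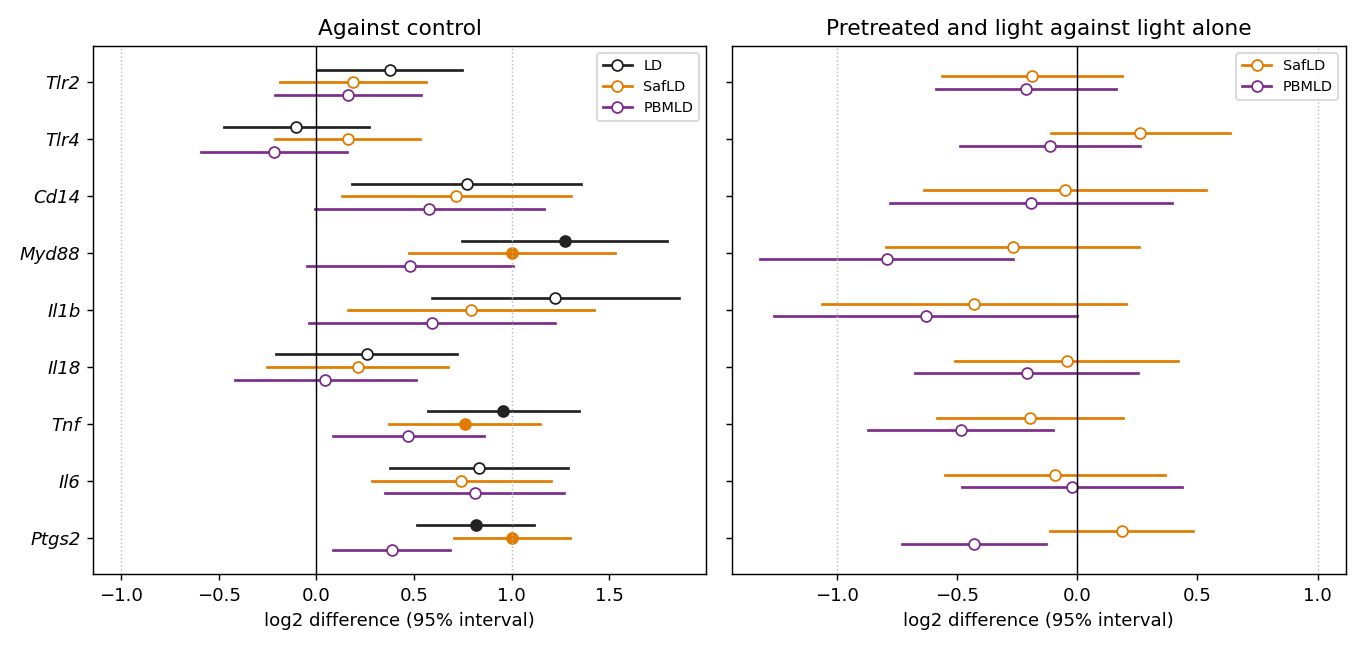
Log2 difference with its 95% interval (horizontal axis) for each gene (vertical axis): LD, SafLD and PBMLD against control on the left, and SafLD and PBMLD against LD on the right. Filled points passed the adjusted test at 0.05 and dotted lines mark 2-fold; the 6 filled points are Myd88, Tnf and Ptgs2 in LD and SafLD, and no point on the right is filled.

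Whether a pretreatment changed the level in the light was tested by setting the light-exposed groups against each other. In PBMLD against LD the mean of all 9 members was lower, and 0 passed the test (0.284% of all probe sets did, in either direction). With array weights Cd14 and Il18 were not lower, nor were Il6 and Tlr4 without the arrays of high lens signal described below. Cd14, Il18 and Il6 also crossed 0 when 1 array was left out. Myd88 was lower by 0.79 ± 0.25 (95% interval -1.32 to -0.27, unadjusted p = 0.00545, limma adjusted p = 0.232), Tnf by 0.49 ± 0.18 (adjusted p = 0.328) and Ptgs2 by 0.43 ± 0.14 (adjusted p = 0.260). Each of these groups overlapped LD. Il6 differed by -0.02 ± 0.22 (interval -0.48 to 0.43).

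In SafLD against LD 0 members passed (0.308% of all probe sets), with 7 lower and 2 higher. Myd88 differed by -0.27 ± 0.25 (interval -0.80 to 0.26) and Ptgs2 by 0.19 ± 0.14 (interval -0.11 to 0.48). With the pretreatments set against each other in the light, 0 members passed, as did 0% of all probe sets. Ptgs2 was the 1 member in which every SafLD array (6.97 to 7.25) was above every PBMLD array (6.40 to 6.61), which held for 5.23% of all probe sets. The difference was 0.62 ± 0.14 (limma unadjusted p = 4.25e-04, adjusted p = 0.354).

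Expressed as a share of the LD difference from control, the PBMLD difference was 37.7% for Myd88, 47.3% for Ptgs2, 48.5% for Il1b, 49.3% for Tnf, 75.1% for Cd14 and 97.2% for Il6. The SafLD difference was 64.8% for Il1b, 78.9% for Myd88, 79.3% for Tnf, 89.0% for Il6, 93.2% for Cd14 and 122.7% for Ptgs2. In Tlr2, Il18 and Tlr4 the LD and control arrays overlapped. Their shares were 43.2%, 18.25% and 212% in PBMLD and 49.95%, 82.7% and -158.3% in SafLD. These comparisons use the same LD and control arrays, and the shares carry the errors of both, so they describe the means only. By array, the median over the 9 members of the level above the control mean was 0.44, 0.89 and 1.101 in LD, 0.51, 0.72 and 0.82 in SafLD and 0.15, 0.38 and 0.50 in PBMLD. PBMLD array 1 was lowest and LD array 3 highest, and LD array 1 lay within the PBMLD range.

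**Figure D3:**
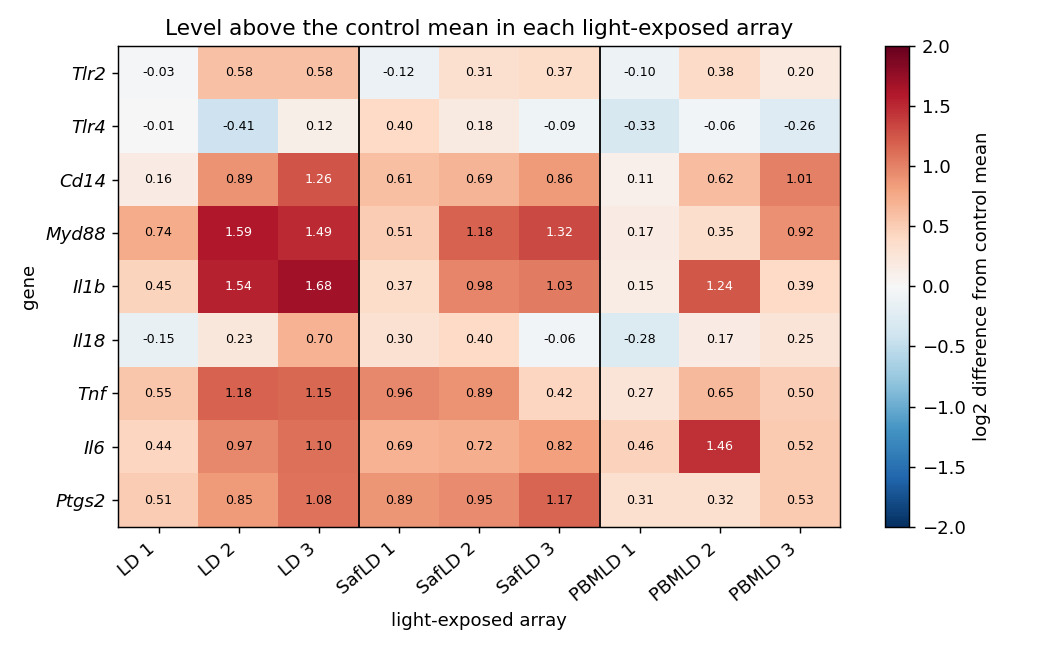
Difference of each light-exposed array (horizontal axis) from the mean of the 3 control arrays, on the log2 scale (color), for each gene (vertical axis), with the value written in each cell. LD arrays 2 and 3 carry the highest Myd88 and Il1b values, PBMLD array 2 has the highest Il6 value, 1.46, and Tlr4 stays between -0.41 and 0.40.

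The light response was also tested within each pretreatment. In SafLD against saffron 1 member was regulated, Ptgs2, and it was higher (0.4% of all probe sets), as was 1 with no limit on the fold (1.14%), and in 5 members the groups did not overlap (10.7%). Ptgs2 read 5.66, 5.91 and 6.003 in saffron, and the SafLD difference was 1.23 ± 0.14, or 2.34-fold (adjusted p = 6.3e-05). This call was kept in all 6 fits with 1 array left out. Myd88 differed by 0.89 ± 0.25 (adjusted p = 0.0761). In PBMLD against PBM 0 members rose (0.205% of all probe sets), while in 3 every PBMLD array was above every PBM array (7.17%). Tlr4 was lower by 0.53 ± 0.18 (5.02, 5.29 and 5.09 in PBMLD, 5.64, 5.78 and 5.55 in PBM, limma adjusted p = 0.350). It was the 1 member with every PBMLD array below every PBM array, which held for 6.3% of all probe sets.

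No member passed the test after a pretreatment alone. In saffron against control 0 members passed, as did 0% of all probe sets, and the differences ran from -0.23 (Ptgs2) to 0.34 (Cd14). In 1 member, Ptgs2, every saffron array (5.66 to 6.003) was below every control (6.06 to 6.13), which held for 4.85% of all probe sets (unadjusted p = 0.129, limma adjusted p = 0.989). In PBM against control 0 members passed (0.154%), with differences from -0.21 (Il18) to 0.31 (Tlr4). Saffron array 3 had a Cd14 of 6.55, above every SafLD array, while the other saffron arrays read 5.42 and 5.87. The interaction of light with PBM, which asks whether the light response differed after PBM, was negative in all 9 members, though Il18, at -0.0022, turned positive with median centring and with quantile normalization, and it passed in 0 (0.00685% of all probe sets). It was -0.54 ± 0.20 for Ptgs2 (unadjusted p = 0.0144), -0.63 ± 0.26 for Tnf (unadjusted p = 0.0267) and -0.65 ± 0.35 for Myd88 (unadjusted p = 0.0821), and the limma adjusted p was 0.999 for each. The interaction with saffron was negative in 6 members and positive in 3, with 0 passing (0.14%), and was 0.41 ± 0.20 for Ptgs2 (limma adjusted p = 0.851). No member's light response was thus shown to differ with pretreatment.

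Over the 3 light-exposed groups together, 6 members rose. In the contrast of the mean of LD, SafLD and PBMLD with the mean of control, saffron and PBM (9 arrays against 9), 0 members were regulated (0.377% of all probe sets were, upwards), but 6 rose with no limit on the fold (2.83%). These were Myd88 (0.93 ± 0.14, limma adjusted p = 6.73e-04), Il1b (0.88 ± 0.17, adjusted p = 0.00496), Ptgs2 (0.77 ± 0.08, adjusted p = 1.3e-05), Il6 (0.67 ± 0.13, adjusted p = 0.00322), Cd14 (0.60 ± 0.16, adjusted p = 0.0378) and Tnf (0.59 ± 0.11, adjusted p = 0.00244). In Il6 and Ptgs2 all 9 light-exposed arrays were above all 9 others, which held for 0.633% of all probe sets. Il6 ran from 2.93 to 3.37 (median 3.23) in the unexposed arrays and from 3.49 to 4.51 (median 3.77) in the exposed. Ptgs2 ran from 5.66 to 6.29 (median 6.06) in the unexposed and from 6.40 to 7.25 (median 6.93) in the exposed.

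The rises of Ptgs2, Myd88, Tnf, Il6 and Il1b passed in all 18 fits that left out 1 array, and that of Cd14 in 4 of the 18 (adjusted p 0.00795 to 0.0811). Tlr2 (0.26 ± 0.10, adjusted p = 0.201), Il18 (0.29 ± 0.13, adjusted p = 0.258) and Tlr4 (-0.18 ± 0.10, adjusted p = 0.413) did not pass. Variation over the 6 groups, by the moderated F test of limma, passed for 3 members (3.1% of all probe sets): Ptgs2 (adjusted p = 1.47e-04), Myd88 (adjusted p = 0.00785) and Tnf (adjusted p = 0.0236).

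Some pairs of members varied together between arrays of the same group, and others did so weakly. Over the 18 arrays, with each group's mean removed, the correlation was highest for Il1b with Tlr2 (0.84), Cd14 with Ptgs2 (0.84) and Il1b with Il6 (0.82). It was 0.21 for Myd88 with Il6 and with Tnf, and 0.16 for Tnf with Ptgs2. Pairs of other probe sets were not examined in this way. Tlr4 gave values from -0.34 to 0.39 with the other members. Outside the 9, the genes whose levels were most like Myd88 over the 18 arrays were Chi3l1, a chitinase-like secreted protein (r = 0.96), Plat, tissue plasminogen activator (r = 0.94), and Ifih1, a sensor of double-stranded RNA (r = 0.94). For Ptgs2 they were Slc25a30, a mitochondrial carrier, Flot2, a flotillin of membrane rafts (both r = 0.95), and Pros1, the anticoagulant protein S (r = 0.94). These are descriptions over arrays that share the group differences.

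Lists of related genes place the members in their pathways. They were written with earlier results of these data known, so their counts are descriptions and no test. In LD against control 0.466% of all probe sets were regulated upwards, and 0.839% rose with no limit on the fold. Of 12 measured Toll-like receptors and co-receptors 0 were regulated in LD against control, with a median difference of 0.02; the largest differences after Cd14 were those of Tlr7, a sensor of single-stranded RNA, at 0.44 (adjusted p = 0.641). Of 11 adaptors and kinases of these receptors Myd88 alone was regulated (median 0.13). Of 12 genes of the interleukin-1 family and its receptors 0 were regulated (median 0.28); after Il1b the largest difference was that of Il1a, which encodes interleukin-1 alpha, at 0.75 (adjusted p = 0.396). Of 5 inflammasome genes 0 were regulated: Casp4, a caspase that senses lipopolysaccharide inside the cell, differed by 0.88 in LD (adjusted p = 0.0756) and rose by 0.86 in SafLD (adjusted p = 0.0476), while Gsdmd, the pore former of pyroptosis, differed by -0.20 (adjusted p = 0.819). Of 18 genes of prostaglandin synthesis and its receptors Ptgs2 alone rose in LD (median 0.02), and Alox5ap, which serves leukotriene synthesis, differed by 0.56 (adjusted p = 0.192).

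In the IL-6 pathway, where Il6 itself did not pass, 4 of 12 genes were regulated upwards in LD against control, as were 0.466% of all probe sets. The study had already named these 4 genes as regulated in LD on the same arrays, so the count describes the list and is no independent support. The list's median was 0.29 and that of all probe sets -0.02. Osmr, the oncostatin M receptor, read 6.66, 7.91 and 8.34 in LD and 4.80, 5.26 and 5.05 in control, a difference of 2.60 ± 0.38 (adjusted p = 0.00130). Lif, leukemia inhibitory factor, read 6.90, 8.43 and 7.84 against 5.02, 5.17 and 5.36, a difference of 2.54 ± 0.57 (adjusted p = 0.0410). Clcf1, a ligand of the ciliary neurotrophic factor receptor, rose by 1.70 ± 0.30 (adjusted p = 0.00671), and Il6st, the shared signalling receptor gp130, by 1.13 ± 0.20 (adjusted p = 0.00650). In SafLD 3 of the 12 were regulated upwards (0.548% of all probe sets): Lif (2.61 ± 0.57), Osmr (1.92 ± 0.38) and Il6st (1.04 ± 0.20). In PBMLD 0 of the 12 were (0.157% of all probe sets), but Il6st rose by 0.91 ± 0.20 with no limit on the fold (limma adjusted p = 0.0402). The list's median there was 0.32. Lif spread in PBMLD from 5.32 to 8.78, with PBMLD array 2, the array highest in Il6, at the top.

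Single arrays mattered for part of these. With 1 array left out, Osmr and Clcf1 kept their call in LD in all 6 fits and Il6st in 5, where it fell under 2-fold without control array 3 (0.96), while Lif kept its call in 1 of 6 (adjusted p up to 0.179, without LD array 3). In SafLD Lif kept it in 1 of 6, Il6st in 3 and Osmr in 4, with adjusted p-values of up to 0.119 and 0.0670 for Lif and Il6st, both without SafLD array 3, and 0.0582 for Osmr, without control array 1.

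In the TNF pathway 2 of 12 genes were regulated upwards in each light-exposed group against control, Litaf and Tnip2 (list median 0.30 in LD). Of all probe sets 0.466% were regulated upwards in LD, 0.548% in SafLD and 0.157% in PBMLD. Litaf, named as a factor induced by lipopolysaccharide that drives TNF, was higher by 1.87 ± 0.25 in LD, 2.07 ± 0.25 in SafLD and 1.76 ± 0.25 in PBMLD. Tnip2, which binds A20 and restrains NF-kB, was higher by 1.67 ± 0.18, 2.01 ± 0.18 and 1.31 ± 0.18 in the same order. Both kept their calls in all 6 fits of each comparison. With no limit on the fold Ripk1, a kinase of the TNF receptor complex, rose by 0.96 in LD (adjusted p = 0.0183) and 0.91 in SafLD (adjusted p = 0.0174). Tnip1, a partner of A20 as well, fell by 0.89 in SafLD (adjusted p = 0.0104). Tnfrsf1a, the main receptor for TNF, differed by 1.22 in LD (adjusted p = 0.147) and rose by 1.19 over the 3 light-exposed groups together (adjusted p = 0.00173). Ripk1, Tnip1 and Tnfrsf1a were named after their values were seen.

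**Figure D4:**
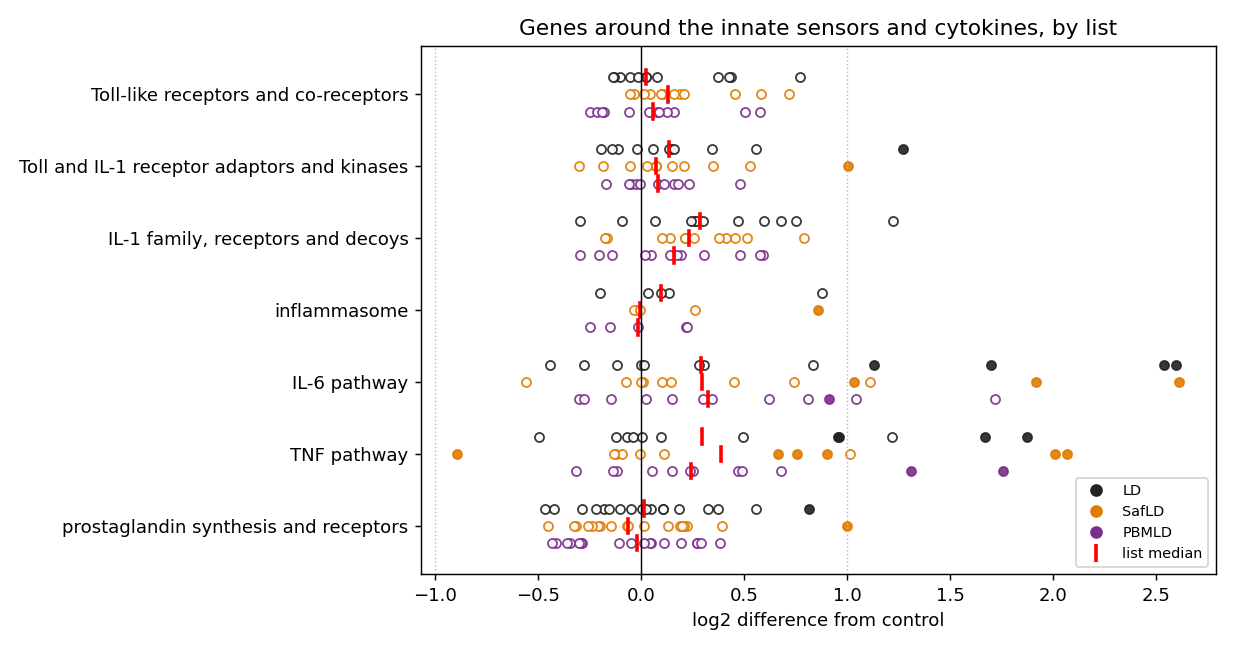
Log2 difference from control (horizontal axis) of each measured gene of 7 lists (vertical axis) in LD, SafLD and PBMLD, one point per gene, filled where the adjusted p was below 0.05, with a red bar at the list's median and dotted lines at 2-fold. The IL-6 and TNF lists hold the points beyond 1.5, while the Toll-like receptor list has a median of 0.02 in LD and no filled point.

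Markers of microglia and macrophages were not higher as a list in the light-exposed arrays. Of 14 microglia and macrophage markers 13 were measured. Their mean log2 level was 5.67 to 5.82 in the control arrays, 5.61 to 5.74 in saffron and 5.50 to 5.62 in PBM. It was 5.59 to 5.72 in LD, 5.64 to 5.68 in SafLD and 5.47 to 5.55 in PBMLD. Every PBM array was thus below every control without damaging light. Summed on the linear scale the list ran from 775.0 to 902.9 in control, 756.7 to 843.1 in saffron and 715.5 to 773.8 in PBM. The sums were 734.0 to 765.5 in LD, 741.7 to 776.9 in SafLD and 657.3 to 729.1 in PBMLD. In LD against control 0 of the 13 were regulated upwards, beside 0.466% of all probe sets, and the list's median difference was -0.16. P2ry12, a receptor of resting microglia, was regulated downwards and fell by 1.04 ± 0.24 (adjusted p = 0.0419). Against the direction of the median, Ptprc, the common leukocyte antigen CD45, differed by 0.68 (adjusted p = 0.379). Cd68, a lysosomal protein of phagocytes, differed by 0.57 (adjusted p = 0.450), and neither passed. The 8 neutrophil markers had a mean of 4.005 to 4.036 in control and 3.96 to 4.15 in LD, within the range of the olfactory receptors, and the 6 measured lymphocyte markers 3.91 to 4.20 and 3.91 to 4.21. Of 7 measured Müller cell markers 1 was regulated upwards in LD (0.466% of all probe sets were). This was Gfap, the filament protein of reactive glia, which rose by 3.27 ± 0.27 (adjusted p = 7.25e-06), while the median of the list was -0.08. The rod markers, which check the labelled tissue, averaged 12.82 to 12.95 in control, 12.75 to 12.87 in saffron and 12.88 to 12.91 in PBM. They averaged 12.31 to 12.74 in LD, 12.64 to 12.73 in SafLD and 12.46 to 12.79 in PBMLD, so that every light-exposed array was below every control. LD array 3 (12.31) and PBMLD array 2 (12.46) were the lowest. The part of this lower rod signal in the members' differences was not tested.

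Lens and pigment epithelium RNA differed between arrays. The 14 measured lens markers averaged 11.0, 8.76 and 10.9 in the LD arrays and 8.73 to 9.29 in control. They averaged 10.3 at most in saffron, 10.2 at most in PBMLD and 9.51 at most in SafLD. The pigment epithelium markers averaged 5.77 to 6.70 in LD, 5.14 to 6.13 in control, 4.91 to 6.19 in SafLD and 4.32 to 6.11 in PBMLD, where array 2 was highest. Against LD the list medians were -0.55 (lens) and -0.68 (pigment epithelium) in PBMLD. In SafLD they were -0.84 and -0.52 in the same order. LD array 2, with the least lens signal of its group, had the highest Myd88 (8.19) and Tnf (6.03) of all arrays. LD array 3, with a high lens mean and the highest pigment epithelium mean of its group (6.70), had the highest Tlr2 (4.88), Cd14 (6.86), Il1b (5.94) and Il18 (5.13) of all arrays. The 4 arrays whose lens mean was above 10 (saffron 1, LD 1, LD 3 and PBMLD 1) were also left out, a choice made after seeing the data. This leaves LD with array 2 alone, so the LD differences from control are those of that array and no test of them is given. They were 1.59 for Myd88, 1.18 for Tnf, 0.85 for Ptgs2 and 1.24 for Il6st. Over the 3 light-exposed groups together Myd88 was then 1.06 higher and Il1b 1.06. The part of lens and pigment epithelium RNA in the members' differences was not tested further.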

How the data were processed

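Members and gene lists were chosen with earlier results of these data known. The deposited values were log2 intensities, 1 per probe set and array, made by the authors with RMA (background correction, quantile normalization and median polish); version 1.1.2800.19935 of Affymetrix Expression Console is named in the submitters' notes on processing. No genome build, scan date or detection call is given in the sources used here. Platform annotation gave 1 gene symbol to 15310 of the 29214 probe sets, several to 323 and none to 13581. Values ran from 1.37 to 14.0, and array medians from 6.12 to 6.19. No 2 arrays were identical, and arrays of a group correlated at 0.977 or more. The number of arrays limits the precision, and p-values measure the spread between arrays only.

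All 18 arrays entered 1 two-sided limma fit (limma 3.58.1, R 4.3.3), with 12 residual and 5.05 prior degrees of freedom and Benjamini-Hochberg adjustment over all probe sets. An exact test of 3 against 3 cannot go below p = 0.1, so none was used. The criterion was an adjusted p below 0.05 and a change of more than 2-fold. The fit was tested on simulated data. Errors given after ± are standard errors (SE). Genes named are the 9 members, from each pathway list those regulated in LD (or, if none, the 2 with the largest difference), and for each regulated member the 3 genes most correlated with it; other genes are named as chosen after their values were seen or stand as markers. Promoters and their motifs came from the RefSeq table of GRCr8, where 9 of 9 members matched. The methods' t-test, other variance models, array weights, scalings, a replicate-number block, a filter on dim probe sets and the leaving out of single arrays were tried as alternatives. Replicate numbers did not pair the samples.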

Additional observations from a re-analysis of the deposited data

Results flagged for a closer look

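The members alone were examined here, over 45 pairs of gene and contrast, in 5 contrasts of a pretreatment or exposure. In 1 member, Ptgs2, all arrays of a group and all arrays of the other group lay on opposite sides of the reference mean. Other probe sets were not examined for this pattern, so whether it is rarer than in any other gene was not tested. In the light, Ptgs2 differed from LD by 0.19 in SafLD and by -0.43 in PBMLD, 0.6153 apart; the difference was tested as SafLD against PBMLD and did not pass (limma adjusted p = 0.354). Without light, Ptgs2 differed from control by -0.23 in saffron and by 0.11 in PBM, -0.3387 apart, and this difference was not tested.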

How the results depend on the processing

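The count of regulated members in LD against control (1) became 2 with array weights and with dim probe sets left out. It was also 2 with the replicate number as a block and with the unadjusted methods' t-test. With no fold limit it became 3, and with the adjusted t-test or only the compared groups fitted it became 0. With 1 array left out it ran from 0 to 4. In SafLD against control (2) it became 1 with array weights and 0 with median centring, quantile normalization and the adjusted t-test (0 to 2 with 1 array left out). In SafLD against saffron (1) it became 2 with array weights and 0 with the adjusted t-test (1 to 2). Over the light-exposed groups together (0) it became 6 with no fold limit (0 to 2). The fits without the high-lens arrays leave LD with 1 array, so their counts are not given. Variation over the groups (3) became 5 with quantile normalization. The block gave 2 members in LD against control and changed no other count by over 1.5 times; samples of the same number did not deviate together (median correlation -0.046 over 45 pairs). Every other count, 0 in each case, stayed at 0. No member has more than 1 probe set, so averaging probe sets could not change a value. Of the differences of single members, 20 turned sign under an alternative other than leaving out 1 array, and the cause was not tested. With array weights these were Cd14 in PBMLD against LD (0.21), SafLD against LD (0.19), SafLD against PBMLD (-0.0196) and the light by PBM interaction (0.26), Il18 in PBMLD against LD (0.0445), SafLD against LD (0.16), saffron against control (0.0329) and the light by PBM interaction (0.11), Il6 in SafLD against LD (0.0508) and SafLD against PBMLD (0.14), Il1b in PBM against control (0.0144) and Tlr2 in SafLD against LD (0.0029). With median centring they were Il18 in the light by PBM interaction (0.0045) and Il1b in saffron against control (-0.0032). With quantile normalization they were Il18 in the light by PBM interaction (0.0082) and PBMLD against control (-0.0260), and Il1b (-0.0406) and Tlr2 (-0.0200) in saffron against control. Without the high-lens arrays they were Il6 (0.0208) and Tlr4 (0.26) in PBMLD against LD. With 1 array left out 25 differences had ranges that crossed 0. In PBMLD against LD they were Cd14 -0.50 to 0.0517, Il18 -0.42 to 0.0091 and Il6 -0.35 to 0.15. In SafLD against LD they were Cd14 -0.36 to 0.19, Il18 -0.25 to 0.18 and Il6 -0.29 to 0.0415. In SafLD against PBMLD they were Cd14 -0.0968 to 0.36, Il1b -0.0218 to 0.52, Il6 -0.24 to 0.25 and Tlr2 -0.10 to 0.18. In saffron against control they were Il18 -0.26 to 0.0841, Il1b -0.0735 to 0.17, Tlr2 -0.0340 to 0.14, Tlr4 -0.0924 to 0.24 and Myd88 -0.0107 to 0.18, and in PBM against control Il18 -0.32 to 0.0216 and Il1b -0.21 to 0.0884. In the light by PBM interaction they were Cd14 -0.41 to 0.13, Il18 -0.23 to 0.22 and Tlr2 -0.33 to 0.000903, and in the light by saffron interaction Il18 -0.13 to 0.32. Tlr4 ran from -0.28 to 0.0548 in LD against control, -0.0202 to 0.31 in SafLD against control and -0.0452 to 0.20 in SafLD against saffron, and Il18 from -0.0682 to 0.28 in PBMLD against control. None of these differences had passed the test. Low signal limits Il6, whose mean was below the limit of the dim filter (4.31).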
